A study of Arabidopsis thaliana with 21 samples.

Results

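H2AK121ub-only peaks within gene bodies are stretches of Arabidopsis thaliana chromatin that carried monoubiquitinated histone H2A but no called H3K27me3 peak, and that lay inside a gene without reaching its start. They were taken from the WT peaks of replicate 1 on the nuclear chromosomes that a WT peak of replicate 2 overlapped. A member overlapped no WT H3K27me3 peak in the tables of the atbmi1abc comparison, overlapped an annotated gene and held no gene start. This gave 8370 members of 20063 WT H2AK121ub peaks (41.7%). The other WT peaks were 8028 with H3K27me3, 1966 H2AK121ub-only peaks over gene starts and 1699 H2AK121ub-only peaks outside genes. The study profiled whole seedlings at 7 days after germination (DAG) by ChIP-seq, with chromatin from pools of seedlings and 2 replicates per genotype. The groups were the triple mutant atbmi1a/b/c (atbmi1abc), the double mutant clf28/swn7 (clfswn), the mutant lhp1 (tfl2-2) and WT (Col-0). All were grown in long days on agar plates. The study's methods name Col-0 for WT and no ecotype for the mutants. A whole seedling mixes tissues, so fewer cells with the mark and less of the mark per cell cannot be told apart.

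Polycomb group (PcG) proteins act in a pair of complexes that modify histones. Polycomb repressive complex 1 (PRC1) places H2AK121ub, with AtBMI1 and AtRING1 proteins as its RING-domain subunits, and PRC2 places H3K27me3, with CLF and SWN as methyltransferases. LHP1 binds H3K27me3 and is found with both complexes. In atbmi1abc a PRC1 subunit is therefore missing, in clfswn the PRC2 enzymes, and in lhp1 a reader of the PRC2 mark. The members carry the PRC1 mark at places where no PRC2 mark was called, and the question for each mutant was how much of the mark was left there.

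The members lay near the 5′ end of their genes. They had a median length of 538 bp (from 236 to 4118 bp), and the edge nearer to the gene start lay at a median of 175 bp downstream of it. This edge was within 200 bp of the start for 4644 members (55.5%) and farther than 1600 bp for 848. Of their bases 61.7% were coding, 16.4% intron, 12.5% 5′ UTR and 4.08% 3′ UTR. No intron base was covered by 3372 members, while 700 were mostly intron, and 424 reached over the gene's end. They fell in 7558 genes, 97.2% of the members in protein-coding ones, and 6812 of these genes had 1 member, 687 had 2 and 59 had more. Of the members, 393 were in genes whose start lay in another WT H2AK121ub peak. The nearest WT H3K27me3 peak was at a median distance of 5532.5 bp.

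The sequence under the members was mostly coding, and 9 windows are shown for the members on which the comparisons turned. AT3G60961 and AGP6 stand for members with few H2AK121ub reads left in atbmi1abc, and ERF-1 for the highest. ATSPS4F stands for the lowest fitted ratio in clfswn, with BBX28 for the highest and AT2G20670 for another increased member. TCH4 and LHCB4.2 stand for reduced and increased members in lhp1, and RING1A encodes a PRC1 subunit. Each window holds the 180 bases at the centre of the peak in TAIR10.1, on the strand of the gene, with coding bases in capitals and intron bases in lower case. The deposited tables do not say whether starts count from 0 or 1, and they were read as counting from 1.
AT3G60961, chr3:22551190-22551369, plus strand: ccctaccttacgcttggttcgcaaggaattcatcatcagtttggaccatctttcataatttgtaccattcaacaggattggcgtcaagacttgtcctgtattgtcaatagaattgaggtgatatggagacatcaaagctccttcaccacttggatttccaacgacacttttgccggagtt
AGP6, chr5:4636174-4636353, minus strand: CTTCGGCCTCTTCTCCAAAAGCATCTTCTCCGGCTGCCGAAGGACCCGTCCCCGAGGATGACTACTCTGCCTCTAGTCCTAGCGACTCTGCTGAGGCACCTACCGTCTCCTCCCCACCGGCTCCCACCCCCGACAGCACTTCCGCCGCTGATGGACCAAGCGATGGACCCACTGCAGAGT
ERF-1, chr4:9759650-9759829, plus strand: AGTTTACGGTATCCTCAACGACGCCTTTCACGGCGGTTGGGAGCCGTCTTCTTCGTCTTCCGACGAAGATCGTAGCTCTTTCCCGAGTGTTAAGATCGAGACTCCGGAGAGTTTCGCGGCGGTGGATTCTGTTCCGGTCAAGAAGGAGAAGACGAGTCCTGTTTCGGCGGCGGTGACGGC
ATSPS4F, chr4:6315176-6315355, plus strand: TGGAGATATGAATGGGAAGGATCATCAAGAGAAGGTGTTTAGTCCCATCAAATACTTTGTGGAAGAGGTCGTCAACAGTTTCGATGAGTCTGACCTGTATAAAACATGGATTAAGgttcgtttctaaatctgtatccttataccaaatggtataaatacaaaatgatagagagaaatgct
BBX28, chr4:13676021-13676200, plus strand: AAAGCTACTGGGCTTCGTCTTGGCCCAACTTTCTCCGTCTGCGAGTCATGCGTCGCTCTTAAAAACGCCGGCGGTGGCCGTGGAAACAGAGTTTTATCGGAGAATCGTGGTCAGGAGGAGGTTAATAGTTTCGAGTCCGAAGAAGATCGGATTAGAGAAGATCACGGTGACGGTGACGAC
AT2G20670, chr2:8913081-8913260, minus strand: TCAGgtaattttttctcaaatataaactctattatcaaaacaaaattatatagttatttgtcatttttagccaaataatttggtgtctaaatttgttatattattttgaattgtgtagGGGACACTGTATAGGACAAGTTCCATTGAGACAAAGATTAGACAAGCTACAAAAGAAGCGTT
TCH4, chr5:23307667-23307846, minus strand: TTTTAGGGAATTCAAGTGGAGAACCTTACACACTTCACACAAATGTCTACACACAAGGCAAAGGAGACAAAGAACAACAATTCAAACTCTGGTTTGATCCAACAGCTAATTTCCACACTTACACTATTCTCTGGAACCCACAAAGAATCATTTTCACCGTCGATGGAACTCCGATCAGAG
LHCB4.2, chr3:2718466-2718645, plus strand: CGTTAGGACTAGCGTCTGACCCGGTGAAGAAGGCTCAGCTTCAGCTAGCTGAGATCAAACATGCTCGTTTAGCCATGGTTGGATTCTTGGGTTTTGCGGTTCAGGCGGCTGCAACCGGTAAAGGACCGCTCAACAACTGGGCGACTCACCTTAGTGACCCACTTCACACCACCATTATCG
RING1A, chr5:17838777-17838956, minus strand: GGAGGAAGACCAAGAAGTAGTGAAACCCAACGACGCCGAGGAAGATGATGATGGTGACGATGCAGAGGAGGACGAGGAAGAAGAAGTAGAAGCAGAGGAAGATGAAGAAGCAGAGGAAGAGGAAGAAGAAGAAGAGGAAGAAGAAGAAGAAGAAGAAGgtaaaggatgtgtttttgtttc

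These windows ranged from 27.2% GC at AT2G20670, where most of the window is an AT-rich intron, to 62.8% at AGP6. Over all members the median GC content of the peak was 41.8%, against 40.2% at gene-start peaks, 33.5% outside genes and 39.1% at peaks with H3K27me3. Motifs were searched on both strands in 300-base windows at the peak centres. The RY element (CATGCA), which B3-domain proteins bind, was in 9.32% of members' windows, against 17.4% of the windows of all WT peaks, 11.6% at gene starts, 33.1% outside genes and 23.9% with H3K27me3. The telobox (AAACCCTA) was in 5.34% of members' windows and 4.87% of all, the GA repeat (GAGAGAGA) in 9.07% and 7.36%, and the G-box (CACGTG) in 4.24% and 5.84%. A match of letters is a description and not a binding site.

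The reads behind these values were unequal between libraries. Reads in a library's own nuclear H2AK121ub peaks came to 1706839 and 2910165 in atbmi1abc replicates 1 and 2, 6599071 and 6884454 in those of clfswn, 9097784 and 7802828 in those of lhp1, and 7151170 and 7490200 in WT. At a member the WT libraries held a median of 215 and 228 reads, and at least 43 and 41. The 6 samples labelled as WT controls of H2AK121ub held only 2 sets of values, so they were counted as 2 libraries, and the comparisons of the 3 mutants share them. Levels are given as the log2 ratio of mutant to WT reads after the authors' rescaling, per replicate, and as the same ratio in percent of WT. This rescaling left reads almost unchanged, with slopes from 0.982 to 1.014. Levels are thus close to ratios of unscaled reads and are not corrected for the size of a library. A member was called reduced or increased when its adjusted p was under 0.05 in 1 edgeR fit of all 8 libraries and its level was under 80% or over 120% of WT in both replicates. The fit covered the 19422 WT peaks that could be matched between replicates, of which 8170 were members.

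In atbmi1abc, rescaled H2AK121ub reads at gene bodies were far below WT, and they were less reduced there than at gene starts and outside genes. The median member was at 42.6% and 59.5% of WT in replicates 1 and 2, a log2 ratio of −0.99 ± 0.34 (SD, n = 2). Of the 8170 tested members, 6332 were reduced (77.5%) and 10 increased (0.122%). Over all WT peaks tested 77.5% were reduced and 0.185% increased, so the members' share matched the background. The ratio was below WT in both replicates at 7556 members and above it in both at 39. In these read counts the direction rests on the scaling. The paper reports a lower global level of the mark from western blots and ChIP-qPCR, which these counts do not include. It also states that the mutant's libraries gave less DNA and mapped less well. The rescaling of atbmi1abc had slopes of 1.009 and 1.014 and constants of 0.078 and −0.026 log2, so it changed the reads little. Over the matched peaks the atbmi1abc libraries held 2506770 and 3744056 reads, against 6839530 and 7186143 in WT. The part of library size in the ratios was not tested. When libraries were scaled to equal reads over the matched peaks, which sets any loss over all peaks to none by construction, the median log2 ratio was 0.077 and 0.119. Then 1158 members were reduced and 1862 increased, against 17.2% and 23.8% of all peaks. WT peaks were also chosen for being called in WT, which favours reductions.

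The difference between classes of peaks does not depend on a library's scale. The median log2 ratio of members in atbmi1abc was higher than that of gene-start peaks by 0.135 and 0.157 in replicates 1 and 2, that is by 0.146 ± 0.016 (SD, n = 2). It was higher than outside genes by 0.302 and 0.346, and differed from that at peaks with H3K27me3 by −0.043 and −0.022. Each of these differences had the same sign in both replicates, but 2 replicates cannot give an exact sign-flip p (two-sided) under 0.5. Members were also shorter and less dense, with a median of 538 bp and 399.3 WT reads per kb, against 711.5 bp and 440.2 at gene-start peaks. Across 5 equal bins of members by WT reads per kb, the median log2 ratio in atbmi1abc was −1.05 and −0.52 in the lowest bin and −1.41 and −1.02 in the highest. The WT reads enter both the ratio and the density, and the part of density and length in the class difference was not tested.

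In clfswn the members kept most of their H2AK121ub, and a larger share of them was reduced than of all WT peaks. Their median log2 ratio was −0.29 and −0.27 in replicates 1 and 2 (−0.279 ± 0.013, SD, n = 2). At 1712 members (21.0%) the mark was reduced and at 109 (1.33%) increased, against 15.6% and 2.3% of all WT peaks tested. The shares reduced were 18.5% at gene starts, 22.9% outside genes and 7.78% at peaks with H3K27me3. The median of members differed from that of peaks with H3K27me3 by −0.228 and −0.229, from that outside genes by 0.157 and 0.075, and from that of gene-start peaks by −0.033 and −0.036. The mean of the last difference, −0.034, was −0.012 for members with no gene start within 250 bp and −0.056 for protein-coding genes. Scaled to equal reads, 1516 members were reduced and 759 increased, against 13.7% and 14.2% of all peaks. Without the replicate block 483 members were reduced and 17 increased, of 889 and 99 among all 19422 peaks. In a fit without the atbmi1abc libraries 2769 and 306 members were, of 5177 and 1257 peaks.

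In lhp1 the members stayed close to WT. Their median log2 ratio was 0.12 and 0.05 (0.088 ± 0.05, SD, n = 2), and it became −0.06 and 0.01 when libraries were scaled to equal reads. Only 8 members were reduced (0.098%) and 75 increased (0.918%), against 0.0515% and 0.68% of all WT peaks. With equal reads 82 were reduced and 271 increased, against 0.855% and 2.54% of all. The median of members was above that of gene-start peaks by 0.069 and 0.105, differed from that outside genes by −0.039 and −0.029, and from that of peaks with H3K27me3 by −0.039 and 0.036. All calls in lhp1 rest on the replicate block. Without it no member passed the adjusted threshold in edgeR, with 380 members at an unadjusted p under 0.05, while DESeq2 with the block gave 36 reduced and 200 increased members, of 61 and 358 peaks. The fit without the atbmi1abc libraries gave 51 and 649 members, of 88 and 1266 peaks.

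**Figure D1:**
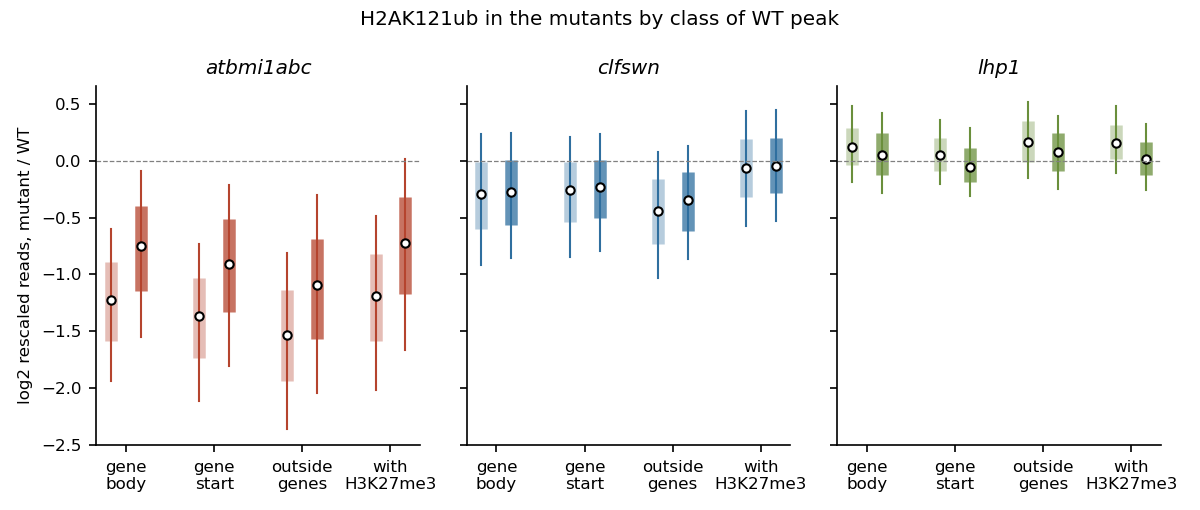
Log2 ratio of rescaled H2AK121ub reads, mutant to WT, in each mutant by class of WT peak, with gene-body members leftmost. Circles are medians, thick bars the quartile range and thin lines the range between the outer deciles, with replicate 1 in the pale and replicate 2 in the dark bar of each pair. Members in atbmi1abc sit at −1.23 and −0.75, above gene-start peaks at −1.37 and −0.91.

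The order of members was shared between replicates, less in lhp1 than in the other mutants. Across the 8170 members, Pearson's r between replicates was 0.797 for the log2 ratios in atbmi1abc, 0.773 in clfswn and 0.454 in lhp1. The points of 1 comparison share libraries, so these values are descriptions. In clfswn 5397 members were below WT in both replicates and 1296 above it in both, and in lhp1 1507 and 3769.

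A peak call in the mutant gives a further readout, which the rule did not use. In atbmi1abc the authors' caller found a peak at 42.2% and 51.8% of members in replicates 1 and 2, against 45.8% and 55.9% of all WT peaks. In clfswn it found one at 85.8% and 87.3%, against 89.5% and 91.8%, and in lhp1 at 88.8% and 92.0%, against 90.9% and 93.3%. Gene-body members were thus called less often than WT peaks in general in all 6 mutant libraries. Gene-start peaks were called more often, at 54.7% and 63.5% in atbmi1abc, and peaks outside genes least often, at 10.1% and 18.2%.

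Calls were rarer far from the gene start than near it. In atbmi1abc a peak was called at 56.1% and 63.9% of the 1103 members whose near edge lay within 50 bp of the start, and at 24.8% and 39.6% of the 848 members beyond 1600 bp. In clfswn the corresponding shares were 92.3% and 93.7% against 75.5% and 78.8%, and in lhp1 94.9% and 96.0% against 85.7% and 85.8%. The share fell from each bin of distance to the next, except in lhp1 replicate 1, where it was lowest, at 83.0%, from 400 to 800 bp. The distant members were also shorter and less dense, with a median of 478 bp and 357.8 WT reads per kb against 628 bp and 453.8 within 50 bp. The median log2 ratio was not ordered by distance. In atbmi1abc it was −1.28 and −0.81 within 50 bp, −1.17 and −0.69 from 400 to 800 bp, and −1.33 and −0.84 beyond 1600 bp.

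**Figure D2:**
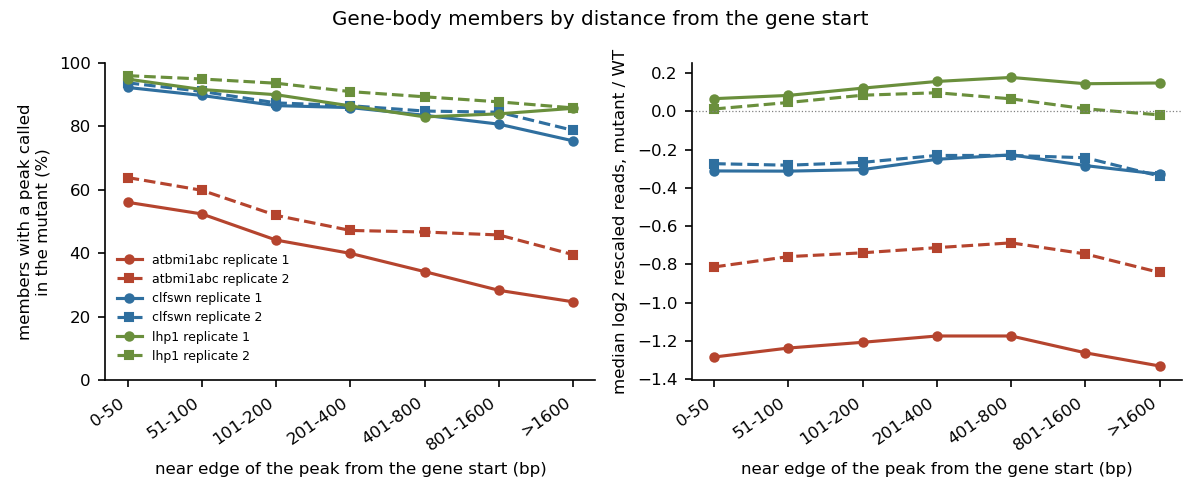
Gene-body members by the distance of their near edge from the gene start (bp, in bins). The left panel gives the percentage with a peak called in the mutant and the right panel the median log2 ratio of rescaled reads, mutant to WT, with a line per mutant and replicate. Peak calls fall to 24.8% and 39.6% in atbmi1abc beyond 1600 bp, while the medians lie highest between 200 and 800 bp.

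The rule's border at the gene start ran between peaks of similar levels. The 1177 members with a gene start within 50 bp outside the peak had median log2 ratios of −1.284 and −0.817 in atbmi1abc. In clfswn they had −0.31 and −0.277, and in lhp1 0.069 and 0.013. The 780 peaks that held a gene start within 50 bp of an edge had −1.302 and −0.864, −0.298 and −0.264, and 0.067 and −0.048. These are given as a description of the border. Among the 636 genes with several tested members, the member farthest from the start was set against the nearest. In clfswn the median difference was −0.14 and −0.128, and the farthest member was lower in 384 and 397 of the genes in replicates 1 and 2. The median difference was −0.09 and −0.041 in atbmi1abc, and 0.078 and 0.016 in lhp1.

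In clfswn the ratio fell with the length of the gene. Over 5 equal bins of members, from the shortest genes to the longest, the share reduced was 11.6%, 17.6%, 23.7%, 24.9% and 26.95%. The median log2 ratio was −0.136 and −0.119 in genes of 190 to 1571 bp and −0.392 and −0.367 in genes of 3650 to 19695 bp. The members in these bins were alike in length, at medians of 545 and 507 bp. Members with more intron were also lower, at −0.221 and −0.208 with no intron base and −0.442 and −0.379 where over 50% was intron. The order over gene length was seen within each of 3 bins of GC content, with −0.424 and −0.335 in long against −0.282 and −0.191 in short genes at low GC, and −0.345 and −0.381 against −0.121 and −0.129 at high GC. The order over intron share was small at low GC, with −0.368 and −0.288 where over 25% was intron against −0.341 and −0.273 without intron bases. At high GC these medians were −0.424 and −0.435 against −0.162 and −0.186. Among members with no intron base it was −0.328 and −0.318 in long and −0.138 and −0.126 in short genes.

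Gene length was set against the ratio in the other classes too. At peaks with H3K27me3 the median in clfswn was −0.045 and −0.021 in the bin of shortest genes and −0.054 and −0.038 in the longest. At gene starts it was −0.305 and −0.24 in the shortest, −0.186 and −0.168 in the next and −0.315 and −0.3 in the longest bin, so the medians did not follow the order of gene length over the whole range. The difference between classes was not tested. In atbmi1abc members were at −1.214 and −0.714 in the shortest and −1.206 and −0.763 in the longest genes. An example of a mostly intronic member, chosen after its values were seen, is the peak in AGD5, a gene of 4285 bp that encodes an ARF-GAP domain protein. It held 71 and 48 reads in clfswn and 235 and 187 in WT, log2 ratios of −1.66 and −1.91 (adjusted p = 8.94e-10).

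**Figure D3:**
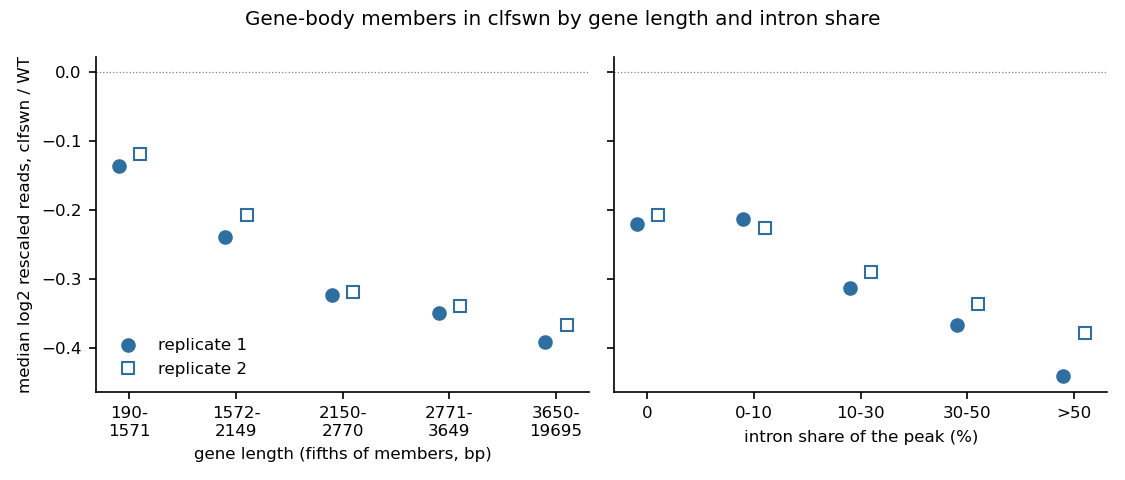
Median log2 ratio of rescaled reads, clfswn to WT, at gene-body members, by bins of gene length (left, bp) and by the share of the peak that is intron (right, %). Filled circles are replicate 1 and open squares replicate 2. The medians fall to −0.39 and −0.37 in the longest genes and to −0.44 and −0.38 where over 50% of the peak is intron.

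H3K27me3 libraries that the rule did not use gave a check on the absence of this mark. Which column of those tables is the mutant was read from the order of the names in them and could not be checked further. Of the members, 6.19% and 4.85% overlapped a peak in the WT libraries of the clfswn comparison, with 374 in both, against 42.1% and 40.5% of all WT H2AK121ub peaks. At the tested members among them H2AK121ub in clfswn was nearer to WT, with medians of −0.071 and −0.076 and 7.78% reduced, against −0.306 and −0.281 and 21.8% at members with a peak in neither library. In atbmi1abc, 5.57% and 5.13% of members overlapped an H3K27me3 peak of the mutant, against 31.7% and 30.8% of all WT H2AK121ub peaks. The 374 tested members with such a peak in both libraries had kept more H2AK121ub in atbmi1abc, with medians of −0.987 and −0.383 and 51.1% reduced, against −1.246 and −0.773 and 79.2% at members with none.

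H3K27me3 peaks called in clfswn lay on a larger share of members than of all WT H2AK121ub peaks. They overlapped 6.25% and 13.4% of members in replicates 1 and 2, against 3.07% and 6.69% of all WT H2AK121ub peaks. This was 31.6% and 31.4% of the 1678 and 3605 H3K27me3 peaks called in clfswn. Nearly all of them, 99.6% and 99.7%, had no WT peak of the same comparison, and they were short, with medians of 246.5 and 306 bp. They held a median of 54 and 102 reads in clfswn and 13 and 10 in WT. The clfswn H3K27me3 peaks elsewhere were alike in this, as 93.3% and 93.9% had no WT peak, with medians of 250.5 and 282 bp. The 398 tested members with such a peak in both replicates were lower in H2AK121ub than the others. Their clfswn medians were −0.653 and −0.597 with 50.5% reduced, against −0.243 and −0.224 and 17.4% at members with none. In atbmi1abc the same members had −1.269 and −0.797, against −1.226 and −0.742. In lhp1 they were higher than the others, at 0.235 and 0.261 against 0.111 and 0.026. The clfswn H3K27me3 libraries held 717150 and 1037622 reads in their own nuclear peaks, against 9575222 and 6275237 in WT, and the part of this in the peak calls was not tested.

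The members with the lowest ratios in atbmi1abc held almost no reads there. Whether their sequence is present in the mutant and can be aligned was not tested. AT3G60961, which encodes a P-loop nucleoside triphosphate hydrolase family protein, has 3 members. That at chr3:22551042-22551516, in an intron, held 0 and 0 reads in atbmi1abc and 195 and 215 in WT, at least 65.0- and 71.7-fold lower in unscaled reads with each 0 set to a floor of 3. AT3G60980, a tetratricopeptide repeat gene nearby, held 1 and 1 reads in atbmi1abc and 712 and 721 in WT (adjusted p = 1.56e-94). AT5G35450, an NLR-type disease resistance gene, held 1 and 0 reads against 348 and 347. No library of clfswn or lhp1 was near empty at these members. At AT3G60980 they held 405 and 388 reads in clfswn and 822 and 734 in lhp1.

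Such members were unevenly spread over the chromosomes. Under 20% of WT reads was left in both atbmi1abc replicates at 129 members, against 8 in clfswn and 0 in lhp1. Over all 20063 WT peaks the counts in clfswn and lhp1 were 15 and 0. Levels are not corrected for library size, so this limit is not the same cut in each mutant. On chromosomes 1, 2 and 3 the atbmi1abc members under this level were 5 of 2249, 19 of 1269 and 47 of 1649. On chromosomes 4 and 5 they were 4 of 1286 and 54 of 1917. Of all 20063 WT peaks 492 were under this level in atbmi1abc (2.45%), against 1.54% of members. They were 42 of 5377 peaks on chromosome 1, 74 of 3179 on chromosome 2 and 155 of 3908 on chromosome 3. On chromosomes 4 and 5 they were 19 of 3088 and 202 of 4511. On each chromosome the share was higher over all peaks than among members. The 12 members with at most 6 reads over both atbmi1abc libraries lay on chromosomes 2, 3 and 5. Between whole chromosomes the median log2 ratio of members differed little, from −1.286 on chromosome 3 to −1.183 on chromosome 1 in replicate 1. In replicate 2 it ran from −0.825 on chromosome 3 to −0.709 on chromosome 4. Within chromosomes, members under 20% of WT were unevenly spread as well. On chromosome 5 the megabase from 5 Mb held 10 of 84, with medians of −1.639 and −1.015. That from 8 Mb held 9 of 67, at −1.463 and −1.01. That from 25 Mb held 2 of 112, at −1.14 and −0.761. ENH1 and AT5G24870, named below, lie in the bins from 5 and 8 Mb.

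**Figure D4:**
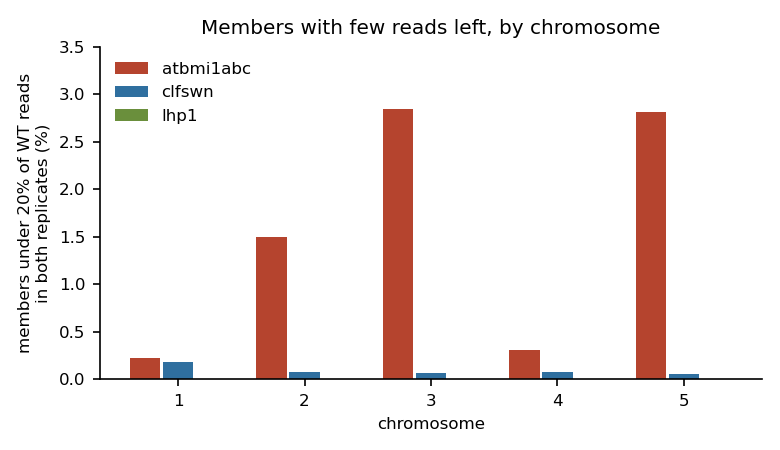
Percentage of gene-body members under 20% of WT reads in both replicates, by chromosome, for each mutant. Levels are not corrected for library size, so the limit is not the same cut in each mutant. In atbmi1abc the bars reach 2.85% on chromosome 3 and 2.82% on chromosome 5, against 0.222% on chromosome 1 and 0.311% on chromosome 4, and no member of lhp1 is under this level.

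Members with more reads left, at least 10 in each atbmi1abc library, were listed after their values were seen. At AGP6, which encodes an arabinogalactan protein of pollen, the libraries held 43 and 32 reads in atbmi1abc and 898 and 921 in WT. The log2 ratio was −4.49 ± 0.38 (SD, n = 2, adjusted p = 5.93e-61), and both mutant libraries lay far under both WT libraries. ENH1, a chloroplast rubredoxin gene, held 36 and 48 reads against 503 and 621. MIPS2, of myo-inositol synthesis, held 53 and 34 against 498 and 607. The other 5 of these 8, AT3G53190, AT3G23510, AT5G03135, AT5G04905 and AT5G24870, had mean log2 ratios from −3.57 to −3.37. All 8 calls were kept under each scaling and model tried.

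Of the 10 members increased in atbmi1abc, 7 passed the read minimum for naming. ERF-1, an ethylene-responsive transcription factor, led them, with 593 and 862 reads in atbmi1abc against 311 and 417 in WT. Its log2 ratio was 1.12 ± 0.04 (SD, n = 2, adjusted p = 3.11e-07), and its call was the only one of the 7 kept when levels had to pass 67% or 150%. HTA8, which encodes an H2A.Z histone, held 225 and 337 reads against 179 and 207. HDA3, a plant histone deacetylase, held 193 and 282 against 176 and 159. The calls at HDA3, GRF6 and AT5G13100 were lost without the replicate block. GRF6, AT4G05250, AT5G02050 and AT5G13100 had mean log2 ratios from 0.58 to 0.69. In these 4 and in HTA8 and HDA3 the mutant libraries were above the WT library of the same replicate by less than in ERF-1.

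The strongest reductions in clfswn among members with at least 100 reads in each WT library were at genes of various functions. ATSPS4F, a sucrose-phosphate synthase gene, held 27 and 16 reads in clfswn and 288 and 128 in WT. Its log2 ratio was −3.10 ± 0.30 (SD, n = 2, adjusted p = 7.89e-23). ALE2, a receptor-like kinase gene of epidermis formation, held 15 and 37 reads against 186 and 273. The unscaled reads of mutant and WT libraries did not overlap at either gene, which the choice by lowest ratio favours. HDA08, a histone deacetylase gene, held 27 and 22 against 151 and 186. AT5G07400, AT3G47090, AT1G32520, AT1G02110 and AT5G00395 had mean log2 ratios from −2.81 to −2.38. In lhp1 none of these 8 was called, and ATSPS4F held 339 and 213 reads there.

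The strongest gain in clfswn was at BBX28, a B-box zinc finger gene, with 620 and 850 reads in clfswn and 222 and 314 in WT. Its log2 ratio was 1.50 ± 0.02 (SD, n = 2, adjusted p = 1.46e-09). AT2G20670 and AT3G07350 both encode proteins with a DUF506 domain. AT2G20670 held 304 and 283 reads in clfswn against 136 and 115 in WT, and AT3G07350 held 1733 and 1799 against 718 and 897. J11, a chaperone of the DnaJ family, held 946 and 959 against 520 and 374. All mutant libraries were above both WT libraries in unscaled reads at these 4 genes, which were picked for a high ratio. ERF-1 and GRF6 were increased here too, at 1.14 ± 0.12 and 1.28 ± 0.26 (SD, n = 2), with the same WT libraries as in atbmi1abc, and the call at GRF6 was lost without the replicate block. AT2G34020 and AT3G06750 had mean log2 ratios of 1.22 and 1.12.

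In lhp1 the 8 reduced members included cell wall and stress genes. TCH4, a touch-induced xyloglucan endotransglucosylase, held 633 and 733 reads in lhp1 against 1327 and 1407 in WT, a log2 ratio of −1.10 ± 0.19 (SD, n = 2, adjusted p = 9.26e-05). The non-coding gene AT4G04975 was lowest, with 45 and 31 reads against 154 and 150. AGP1, an arabinogalactan protein gene, held 262 and 244 against 368 and 654, and RHL41, a stress-induced zinc finger gene, 200 and 149 against 263 and 396. In all 4 genes both lhp1 libraries lay under both WT libraries in unscaled reads, which a reduced call in both replicates favours. AT1G07135, AT4G29780, AT3G10300 and AT3G55430 had mean log2 ratios from −1.04 to −0.87.

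Among the 75 members increased in lhp1 were genes of light harvesting and chlorophyll. LHCB4.2, a minor antenna protein of photosystem II, held 487 and 467 reads in lhp1 and 158 and 228 in WT. Its log2 ratio was 1.23 ± 0.32 (SD, n = 2, adjusted p = 9.26e-05). GLK2, a transcription factor of chloroplast development, held 1445 and 1000 reads against 568 and 488. GUN5, the subunit of magnesium chelatase that acts in chlorophyll synthesis, held 377 and 389 against 146 and 205. MYBL2, a repressor of anthocyanin synthesis, held 1630 and 845 against 644 and 395, and the aquaporin gene PIP1B 1022 and 564 against 393 and 278. OXS2, bZIP2 and ML5 had mean log2 ratios of 1.18, 1.15 and 1.12. At all 8 genes both lhp1 libraries were above both WT libraries in unscaled reads. The genes were picked for the highest ratios, so this adds no separate evidence.

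**Figure D5:**
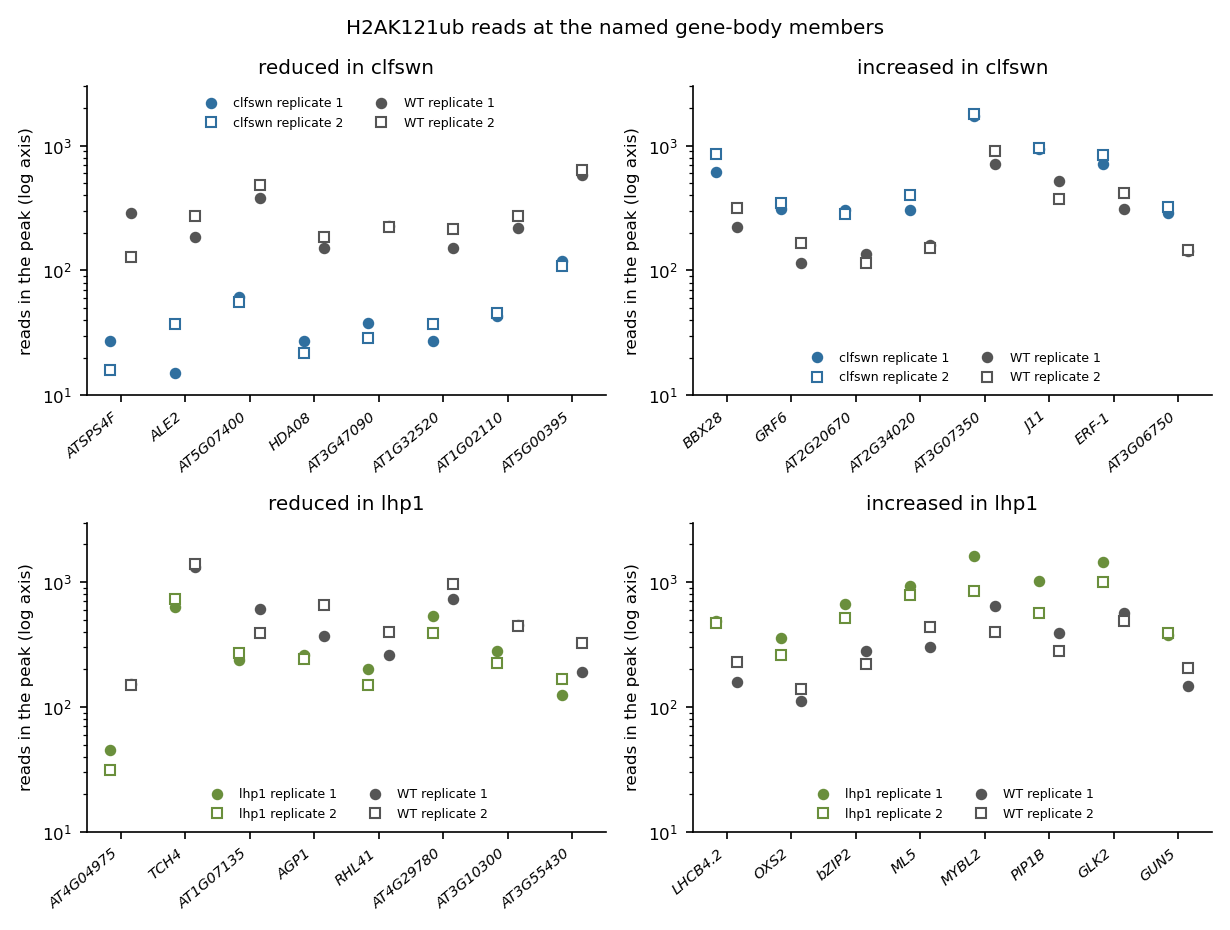
H2AK121ub reads in the peak (log axis) at the 8 most reduced and 8 most increased members in clfswn (top) and lhp1 (bottom), with mutant libraries left of WT libraries. Filled circles are replicate 1 and open squares replicate 2. ATSPS4F holds 27 and 16 reads in clfswn against 288 and 128 in WT, and LHCB4.2 487 and 467 reads in lhp1 against 158 and 228.

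Genes of photosynthesis had the highest share of members increased in lhp1 among the gene lists. Of the 38 tested members in this list 7 were increased (18.4%), against 0.918% of all members. They were LHCB4.2, the oxygen-evolving complex genes PSBO2, PSBP-1 and PSBQ-2, PSBR, PSAE-2 of photosystem I, and NPQ4, which acts in dissipating excess light. Their mean log2 ratios ran from 0.73 at NPQ4 to 1.23 at LHCB4.2. PSBO2 held 1838 and 1281 reads in lhp1 against 763 and 676 in WT, and PSBR 1005 and 722 against 396 and 461. The median of the list was 0.474 and 0.369, and 0.307 and 0.326 with equal reads, where 11 were increased. In clfswn 4 of the 38 were reduced and 4 increased (10.5% each), against 21.0% and 1.33% of all members, at a median of 0.002 and 0.127. In atbmi1abc 26 were reduced (68.4%), against 77.5% of all members, with a median of −1.235 and −0.627. All 7 calls in lhp1 were lost without the replicate block.

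The share of members reduced in clfswn varied between other functional groups, and these differences were not tested. Of 89 members in genes for helicases, myosins and other motor or repair proteins 25 were reduced (28.1%), at a median of −0.461 and −0.433. The genes of these members had a median length of 3987 bp, against 2453 bp over all tested members. Pentatricopeptide and tetratricopeptide repeat genes, many of which act on organelle RNA, had 55 of 205 reduced (26.8%), at −0.415 and −0.358, with a median gene length of 2453 bp. Transcription factors had 47 of 307 reduced and 3 increased, at −0.184 and −0.169. Cytochrome P450 genes had 18 of 111 reduced, at −0.103 and −0.109, and NLR disease resistance genes, with a median length of 4614 bp, 5 of 55 (9.09%). Over all members 21.0% were reduced.

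In atbmi1abc most groups were close to the 77.5% of all members. Transporter genes had 259 of 303 reduced (85.5%), at a median of −1.317 and −0.849, but 52 reduced and 45 increased with equal reads. Receptor-like kinases had 151 of 211 reduced (71.6%), F-box genes 60 of 76, cell wall genes 103 of 139, other kinases and phosphatases 175 of 229, and chromatin genes 52 of 70. The 2 increased members among chromatin genes were HTA8 and HDA3. In clfswn 33 of the receptor-like kinase members were reduced, 12 of the F-box, 19 of the cell wall, 45 of the other kinase and phosphatase, 15 of the chromatin and 59 of the transporter members.

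PcG genes and their partners had 6 tested members. DRIP1 and DRIP2, which encode AtBMI1B and AtBMI1A and are mutated in atbmi1abc, are the first of them. DRIP1 held 64 and 100 reads in atbmi1abc against 362 and 387 in WT, and DRIP2 held 79 and 118 against 728 and 777. Both were reduced in atbmi1abc under every scaling tried, at −2.11 ± 0.33 and −2.85 ± 0.29 (SD, n = 2). Neither was called in clfswn or lhp1. RING1A, the other kind of RING-domain subunit of PRC1, held 211 and 276 reads in atbmi1abc, 453 and 434 in the clfswn libraries, 749 and 812 in the lhp1 libraries, and 742 and 715 in WT. It was reduced in atbmi1abc at −1.47 ± 0.27 (SD, n = 2, adjusted p = 1.37e-10) and in clfswn at −0.68 ± 0.002 (SD, n = 2, adjusted p = 0.0135), where the call was lost without the replicate block.

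VEL1, a PHD-finger protein associated with PRC2, held 95 and 134 reads in atbmi1abc, 103 and 129 in the clfswn libraries, 258 and 299 in the lhp1 libraries, and 217 and 236 in WT. The mean log2 ratio of VEL1, not corrected for library size, was −0.92 ± 0.14 for clfswn and −0.89 ± 0.22 for atbmi1abc (SD, n = 2). These 2 means do not rank the mutants, because they changed differently with equal reads. Replicates 1 and 2 of clfswn then gave −0.837 and −0.637, while those of atbmi1abc gave 0.265 and 0.129. HSL1, also named VAL2, a B3-domain repressor, held 30 and 47 reads in atbmi1abc, 37 and 46 in the clfswn libraries, 94 and 75 in the lhp1 libraries, and 82 and 68 in WT. Both genes were called reduced in atbmi1abc and clfswn. Their calls in atbmi1abc were lost with equal reads, and those in clfswn without the replicate block. TFL2, the gene of LHP1 itself, held 72 and 62 reads in atbmi1abc, 94 and 81 in the clfswn libraries, 124 and 113 in the lhp1 libraries, and 111 and 90 in WT, and passed the threshold in none of the mutants. With equal reads it was called increased in atbmi1abc.

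The members with the highest WT density were reduced in atbmi1abc as well. They were TSPO, EXL4, CYP78A6, MAPKKK13, EXO and BRG2, with 2330 to 2001 WT reads per kb. BRG2 held 564 and 732 reads in atbmi1abc, 1982 and 1894 in the clfswn libraries, 4009 and 3644 in the lhp1 libraries, and 2974 and 2974 in WT. TSPO, of the outer-membrane tryptophan-rich sensory protein family, held 593 and 1152, 1461 and 1713, 2726 and 2428, and 2213 and 2565 reads in the same order. EXO, a brassinosteroid-responsive gene of cell expansion, held 942 and 1414 reads in atbmi1abc, 1237 and 1407 in the clfswn libraries, 1919 and 2129 in the lhp1 libraries, and 2269 and 2957 in WT. All 6 were called reduced in atbmi1abc, but with equal reads the calls remained at CYP78A6 and BRG2 alone. All but MAPKKK13 were reduced in clfswn, with the call at TSPO lost without the replicate block, and none was called in lhp1. The 6 were chosen by their WT reads, which also enter the ratio, so the choice favours reductions. In the densest of the 5 bins of members, 90.08% were reduced in atbmi1abc and 24.95% in clfswn. Over all WT peaks tested these shares were 77.5% and 15.6%.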

How the data were processed

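H2AK121ub and H3K27me3 were measured by ChIP-seq in WT and PcG mutant seedlings of 7 DAG. The authors aligned reads to TAIR10 with bowtie (unique alignments), called peaks with MACS2 against a common input, and deposited 10 tables of whole-number read counts per peak, without normalization, for 1 mutant and 1 WT library each. The deposited tables also hold the authors' rescaled log2 ratio, mean log2 intensity and −log10 p-value of each comparison. These were not used, except that the ratio served to recover the slope (from 0.982 to 1.014) and constant (from −0.073 to 0.078 log2) of the rescaling, an exact linear function of log2(reads + 1). Per the study's methods the rescaling for atbmi1abc rests on common peaks that changed little, at genes without differential expression. Depth outside peaks was not analysed.

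Which column is the mutant was read from the order of names in each table. For H2AK121ub this was checked, since the tables of the 3 mutants share the WT column. Peaks overlapped with 1 bp or more. Gene models were those of TAIR10.1 (RefSeq), with 33056 nuclear genes. Replicate peaks were matched one to one, and edgeR 4.0.16 (R 4.3.3) was run on 8 libraries (quasi-likelihood test, Benjamini-Hochberg adjustment over 19422 peaks, 3 residual degrees of freedom) with a block for the replicate number and offsets from the rescaling. The labels name a WT control for each mutant library and both were counted within shared peak limits, so the pairing is in the tables; a correlation of deviations would reflect those limits and was not used. DESeq2 1.42.0, other scalings, thresholds, filters and annotations were alternatives. The edgeR script was tested on simulated data. Libraries had 16 PCR cycles, so p-values rest on reads that are not independent molecules. Members and gene lists were chosen with earlier results of these data known. Named genes are the 8 reduced members with the lowest and the 8 increased members with the highest fitted ratio per mutant, with at least 100 reads in each WT library, the 6 densest members and PcG genes.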

Additional observations from a re-analysis of the deposited data

Results flagged for a closer look

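H3K27me3 peaks called in clfswn are signal in libraries outside the main H2AK121ub measurement. They overlapped 6.25% of gene-body members in replicate 1 and 13.4% in replicate 2, although the members were defined by having no H3K27me3 peak in WT. In the WT libraries of the same comparison 6.19% and 4.85% of members overlapped a peak. These shares come from 1678 and 3605 peaks called in clfswn and from 10303 and 10192 called in WT. The share was nearly equal to that of WT in replicate 1, at 6.249% against 6.189%, and above it in replicate 2. In both replicates nearly all clfswn peaks on members, 99.6% and 99.7%, had no WT peak of the same comparison. The part of these peaks in the H2AK121ub values was not tested.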

How the results depend on the processing

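Among the results recomputed under an alternative, 72 values stayed within their limits, 44 moved and 2 changed sign. The 2 were the median log2 ratios of members under total-read scaling, 0.098 in atbmi1abc and −0.028 in lhp1, and that of clfswn became −0.09. Reduced and increased members numbered 1158 and 1862 in atbmi1abc, 759 increased in clfswn, and 82 and 271 in lhp1 with total reads. With TMM they were 1380 and 1482, 738 increased, and 68 and 318. Over all 19422 peaks TMM gave 3898 and 3789, 2685 increased, and 127 and 581. DESeq2 with the block gave 1140 and 1191 for atbmi1abc, 1093 and 460 for clfswn, and 36 and 200 for lhp1. Over all peaks DESeq2 gave 3317 and 3202, 1918 and 1760, and 61 and 358. Without the replicate block edgeR called 5765 and 4 members for atbmi1abc, 483 and 17 for clfswn, and 0 and 0 for lhp1. In lhp1 380 members had an unadjusted p under 0.05 in this edgeR fit. Over all 19422 peaks the fit called 13739 and 18, 889 and 99, and 0 and 0. Limits of 67% and 150% left 1 increased member in atbmi1abc and 68 in clfswn, of 3 and 305 peaks. A fit without the atbmi1abc libraries, added after seeing the data, gave 2769 and 306 in clfswn and 51 and 649 in lhp1. With no gene start within 250 bp 2687 members were tested, against 8170. The counts were 2039 and 3 for atbmi1abc, 559 and 48 for clfswn, and 3 and 36 for lhp1. They are among the values that moved, but a count in a smaller set does not by itself show a changed share. The percentages with a peak called were then 38.4, 82.4 and 86.4, the clfswn median −0.256, and the difference from gene-start peaks 0.162 in atbmi1abc and −0.012 in clfswn. That difference was 0.122 and −0.031 with at least 100 WT reads and 0.129 and −0.056 for protein-coding genes. Leaving out a replicate leaves no residual degrees of freedom, so counts were not refitted.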

Other observations

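The uneven spread of nearly empty peaks over the chromosomes was also seen in the H3K27me3 libraries of atbmi1abc. WT H3K27me3 peaks with at most 3 reads in the mutant numbered 1 on chromosome 1, 6 on chromosome 2, 7 on chromosome 3, 1 on chromosome 4 and 27 on chromosome 5 in replicate 1. In replicate 2 they numbered 0, 5, 4, 0 and 20 in the same order. In clfswn they numbered 14, 7, 3, 9 and 4 in replicate 1 and 1, 0, 0, 2 and 3 in replicate 2. The part of this in the H2AK121ub values was not tested. Without the members under 20% of WT in both atbmi1abc replicates, an alternative added after seeing the data, the median log2 ratio in atbmi1abc was −0.98, against −0.99 with them.

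Some genes held several members. AT1G67900 had 5 over 5814 bp, and CuAO1 and BXL2 were among those with 4 each. Members nearer to a WT H3K27me3 peak kept slightly more H2AK121ub in clfswn, with medians of −0.216 and −0.22 in the nearest of 5 equal bins (up to 1555 bp) and −0.331 and −0.305 in the farthest (over 14093 bp). In atbmi1abc the same bins had −1.238 and −0.751, and −1.249 and −0.742.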
